A study of Mus musculus with 2 samples.

Results

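Cytosolic ribosomal protein genes encode the proteins of the 2 subunits of the ribosome, the particle that translates mRNA in the cytoplasm. Members were chosen by gene symbol: Rpl or Rps followed by a digit, or Rpsa, Rplp0, Rplp1 or Rplp2, without pseudogene symbols and the Rps6k kinases, and with at least 20 UMIs (unique molecular identifiers, each a counted mRNA molecule) over both libraries. Of 86 matching symbols 83 were kept, out of 20867 genes with at least 1 UMI and 32287 listed features. They were 49 large subunit symbols (Rpl) and 34 small subunit symbols (Rps). The kept symbol with the fewest UMIs was Rps19bp1 with 745, followed by Rpl7l1 with 1103 and Rps27rt with 1158. Left out were Rpl3l with 16 UMIs, Rpl39l with 13 and Rpl10l with 0. The label holds for the set with a reservation for Rps19bp1, whose product binds the ribosomal protein Rps19 and is not itself a ribosomal protein.

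For the data, 2 droplet single-cell libraries, called R1 and R2, were made from the leptomeninges of mice, and both belong to 1 group with no treatment or control. The tissue, the thin membranes over the brain, came from the cerebral hemispheres of 3-month-old Pdgfra-H2BGFP mice of both sexes, a line with a nuclear green fluorescent reporter driven by the gene of a fibroblast receptor. The reporter feature had 0 UMIs. Nothing in the labels says how many animals entered a library or that R1 and R2 came from separate ones. With the library as a block, p-values rest on how differences between groups of barcodes vary between the 2 libraries. That variation was estimated largely from all genes tested together, not from each gene alone, so very small p-values do not measure a gene's own spread. It may be technical variation. The libraries shared 93 barcode sequences, 74 of them among kept barcodes.

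After filters on genes and mitochondrial UMIs, 2985 barcodes of R1 and 3035 of R2 were kept, with 7629128 and 6270141 UMIs. Cell classes were rebuilt by clustering without the ribosomal protein genes and named from marker lists, so a name such as "border macrophage-like" rests on those markers and the classes may differ from the study's own. Barcodes were also split by Malat1, a long noncoding RNA held in the nucleus: Malat1-rich barcodes had at least 1% of their UMIs from Malat1 and Malat1-poor barcodes less. Malat1-rich barcodes made up 52.6% of kept barcodes in R1 and 39.9% in R2.

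Ribosomal protein mRNAs are among the most abundant mRNAs of most cells. The 2 subunits need their proteins in matched amounts, and the synthesis of these proteins is adjusted together, in part through a pyrimidine stretch that starts at the first base of many of their mRNAs (the TOP motif), on which growth signals act through the mTOR pathway. In circulating and tissue lymphocytes these mRNAs are known to take a large part of the transcriptome.

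The starts of 8 members on which later results turn are printed here because such a stretch is the best known shared sequence of the family. Each is 30 bases, 10 before and 20 from the annotated start on, from RefSeq's promoter table of GRCm38.p6. Capitals mark a C followed by at least 4 bases that are each C or T, beginning within 5 bases before or 10 after the start. They lie on the transcribed strand, at chr3:90213629-90213658 (minus) for Rps27, chr9:66946076-66946105 (plus) for Rps27l, chr4:152325716-152325745 (plus) for Rpl22, chr3:28805498-28805527 (plus) for Rpl22l1, chr16:33056472-33056501 (plus) for Rpl35a, chr3:130730379-130730408 (minus) for Rpl34, chr11:114668570-114668599 (plus) for Rpl38 and chr7:141447641-141447670 (plus) for Rplp2. Where a gene has several annotated starts, 1 was chosen after the sequences were seen.
Rps27: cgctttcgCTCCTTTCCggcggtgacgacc
Rps27l: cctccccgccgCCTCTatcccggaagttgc
Rpl22: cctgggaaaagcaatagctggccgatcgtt
Rpl22l1: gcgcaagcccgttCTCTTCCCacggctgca
Rpl35a: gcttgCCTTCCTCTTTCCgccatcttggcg
Rpl34: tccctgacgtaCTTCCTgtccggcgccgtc
Rpl38: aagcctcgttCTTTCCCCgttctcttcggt
Rplp2: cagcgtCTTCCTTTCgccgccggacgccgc

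The table held 63 of the 83 members. A C at an annotated start followed directly by at least 4 pyrimidines on the transcribed strand was present for 14 of the 63 (22.2%) and for 3.01% of 27025 genes of the table. Allowing the stretch to lie from 5 bases before to 10 after a start, it was found for 30 of the 63 (47.6%) and for 21.2% of all genes. In the annotation the genes lie, for example, on chromosome 3 from 28805436 to 28807424 (plus strand; Rpl22l1, ENSMUSG00000039221), chromosome 4 from 152325742 to 152334071 (plus; Rpl22, ENSMUSG00000028936) and chromosome 12 from 69157722 to 69159186 (minus; Rps29, ENSMUSG00000034892), all protein-coding in GENCODE M21. Rpl22 had none at either of its annotated starts, while its paralog Rpl22l1 had one beginning 3 bases after the start. A match is a description of these letters, and annotated starts can be off by a few bases or more. For Rpl22l1 the GENCODE gene start, 28805436, lies outside the printed window, and for Rpl22 it lies near the window's end. The contrast between these genes thus depends on the start used.

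The members' share of UMIs differed between cell classes. T or NK-like barcodes, the lymphocytes, had the highest share of UMIs from the 83 genes among named classes, 27.8% in R1 and 24.7% in R2. An unnamed cluster led by MHC class II genes (C19) had 23.6% and 25.9%, which overlap the T or NK-like values. Neuron-like barcodes had 21.7% and 20.8%, and plasma-like barcodes, the antibody-secreting cells, 19.7% and 14.2%. The neuron-like values rest on Malat1-poor barcodes, 229 of 249 in R1 and 76 of 81 in R2. These had a share of 23.0% in each library, and the 20 and 5 Malat1-rich ones had 11.97% and 5.47%. Macrophages and microglia followed, with 13.1% and 11.6% in border macrophage-like barcodes and 10.5% and 10.2% in microglia-like barcodes. Neutrophil-like barcodes, also myeloid but only 10 in each library, had 4.21% and 3.44%, near the fibroblast-like layers. Vessel classes were lower, at 8.53% and 8.31% in endothelial-like and 6.61% and 6.43% in mural-like barcodes. The endothelial-like class joined clusters with unlike mean shares, 12.5% in C04, 7.2% in C07 and 5.8% in C13. C04 was thus not below the macrophages and microglia.

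Fibroblast-like layers lay at the low end. Dural border-like barcodes had 5.08% and 4.84%, inner arachnoid fibroblast-like barcodes 4.10% and 4.81%, arachnoid barrier-like barcodes 3.67% and 4.50%, and pial and perivascular fibroblast-like barcodes 3.47% and 3.14%. The ranges of the inner arachnoid and arachnoid barrier classes overlapped, and those of the dural border and inner arachnoid classes lay next to each other. Within the dural border-like class, cluster F00 had a mean share of 6.35% and cluster F01 of 3.15%. The unnamed cluster F04, in which 7.78% and 6.98% of barcodes were Malat1-rich, had 10.1% in both libraries. It was grouped with the fibroblast-like barcodes in the first round of clustering, but its markers do not bear out that name. Its 10 leading genes held 0 markers of its best-scoring layer and 2 of other classes, and included Ttr and Cldn5. Its best layer score (0.50, dural border-like) was below its neuron-like score (0.60). The lowest share was 2.31% and 2.09%, in an unnamed cluster led by Meg3, Gria2 and Bcan (C08). Erythroid-like barcodes were at 4.58% in R1 and 1.24% in R2. For these shares the 95% exact binomial (Clopper-Pearson) intervals are narrow, for example 27.6% to 28.1% for T or NK-like barcodes of R1, and cover counting error only.

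**Figure D1:**
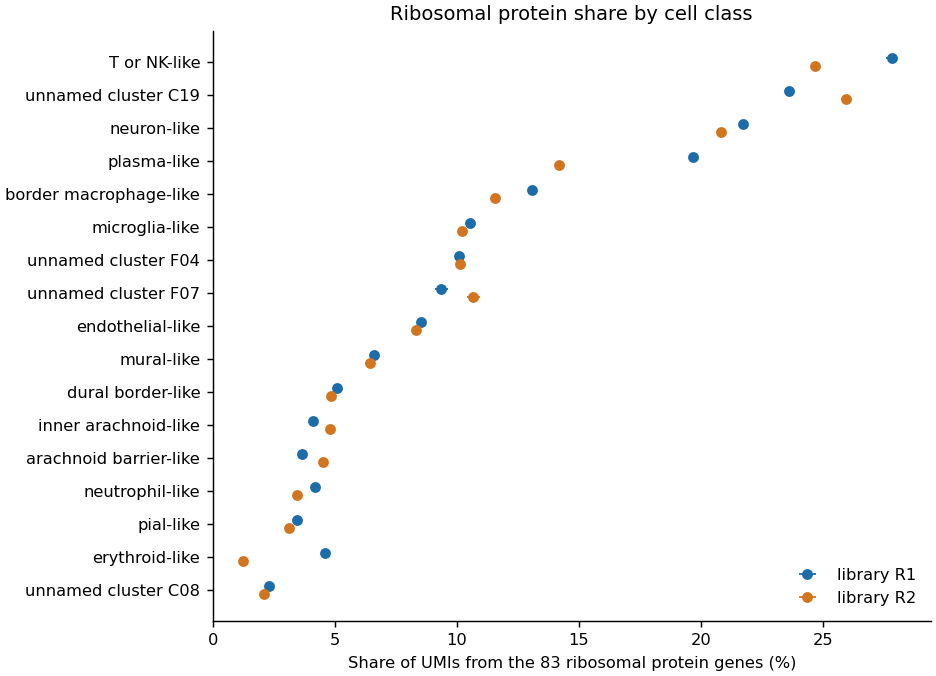
Share of UMIs (%) from the 83 ribosomal protein genes in each cell class, 1 point per library, with exact 95% binomial intervals that are mostly narrower than the points. T or NK-like barcodes lie at 27.8% and 24.7%, the fibroblast-like layers between 3.14% and 5.08%.

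Single members did not all follow the order of the shares. Rps29, a small zinc-binding protein of the small subunit, had 10207 CPM (UMIs scaled to a common library total) in border macrophage-like barcodes of R1 and 8443 in R2, 5470 and 4704 in microglia-like, 8017 and 6166 in T or NK-like, 2532 and 2065 in endothelial-like, and 1365 and 1076 in pial and perivascular fibroblast-like barcodes. Its border macrophage-like values were thus above its T or NK-like ones, and the values of the 5 classes did not overlap. Rpl37, a large subunit protein, had 10167 and 9454 CPM in neuron-like, 4241 and 3943 in T or NK-like and 836 and 672 in pial barcodes, the widest range of the named classes tested (4.35 on the log2 scale). Rpl35a, of the large subunit, ranged from 5599 and 5722 CPM in neuron-like to 557 and 439 in pial barcodes. Rps23, which lies at the decoding centre of the small subunit, ranged from 4120 and 4064 CPM in neuron-like to 406 and 385 in pial barcodes.

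All 83 members differed among the 8 classes with at least 50 barcodes in each library (edgeR F test, adjusted p between 4.40e-55 for Rpl37 and 0.0065 for Rps19bp1). In the same test 85.8% of all genes passed, so the count by itself says little about the members. The range between the highest and the lowest class had a median of 3.06 over the members on the log2 CPM scale, from 1.01 to 4.35. Of the members 76 were highest in the neuron-like and lowest in the pial class, 5 were highest in border macrophage-like barcodes (Rps19bp1, Rps27l, Rpl7, Rpl10 and Rpl23), Rpl7l1 was highest in microglia-like barcodes, and Rps27rt was lowest in mural-like ones. The widest ranges after Rpl37 were those of Rpl35a, Rpl38, Rps19, Rpl9, Rps23, Rps24 and Rps21. The neuron-like class also carried other cells' markers. Its second-highest marker score was oligodendrocyte-like, 3.05 beside 4.38 for neuron-like. All 6 listed neuron markers had UMIs there, together 11264 CPM in Malat1-poor barcodes of R1 and 6790 in R2, beside 6703 and 10281 CPM from all 6 astrocyte markers, and their part in the members' values was not tested.

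The T or NK-like class held 33 and 52 barcodes and was too small in R1 for the fit. For 82 of the 83 members both of its libraries lay above both pial libraries. How many of all genes did so was not counted, so this number by itself says little about the members. The ratio of the mean CPM of the T or NK-like to the pial class had a median of 7.501, from 1.29 for Rps19bp1 to 15.7 for Rps15a. Rps27 had 8357 and 6407 CPM in T or NK-like barcodes, above its 3958 and 3593 in neuron-like barcodes, and Rpsa, a small subunit protein also known as a laminin receptor, had 5704 and 5075. Rpl38, in contrast, was higher in neuron-like barcodes, with 6851 and 5553 CPM beside 4736 and 3830 in T or NK-like ones.

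The 3 fibroblast-like layers in the fit were compared with the 5 other classes. All 83 members were lower in the layers, with a median log2 difference of -1.42, while 19.8% of all genes were lower and the median of all genes was 0.09. With neuron-like barcodes left out of the other side, 82 members were lower (18.5% of all genes) with a median of -1.09. The member not called was Rpl22l1, at -0.07 ± 0.13 (SE; adjusted p = 0.71). The largest differences without neuron-like barcodes were those of Rpl35a (-1.67 ± 0.12), Rpl34 (-1.58 ± 0.12), Rpl29 (-1.54 ± 0.13), Rps16 (-1.47 ± 0.12) and Rpl30 (-1.45 ± 0.12), and each was lower in R1 and in R2 alone. Rps19, the small subunit protein first linked to Diamond-Blackfan anaemia, was 1 of the 5 largest with neuron-like barcodes kept (-1.83 ± 0.12). Within 1 Malat1 state fewer classes had enough barcodes. In Malat1-rich barcodes, where the 3 layers stood against border macrophage-like and endothelial-like barcodes only, all 83 were lower (median -1.53). In Malat1-poor barcodes, where inner arachnoid barcodes alone stood against border macrophage-like, microglia-like and neuron-like ones, 79 were (median -1.51). The shares of all genes that were lower within a state are not given here, so these counts have no background beside them.

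Among the layers 69 of the 83 members differed (F test; 31.2% of all genes), with a median range of 0.75 on the log2 scale. The pial class was lowest for all 83, and the inner arachnoid class highest for 77 after TMM scaling. Rps4x, the X-linked form of a small subunit protein, had 752 and 985 CPM in inner arachnoid, 723 and 743 in dural border and 464 and 492 in pial barcodes (range 1.17, adjusted p = 8.90e-06). Rplp2, of the stalk that recruits elongation factors, had 418 and 461, 414 and 388, and 274 and 229 CPM in the same order (range 1.13, adjusted p = 7.05e-05). The other widest ranges were those of Rpl15, Rps23, Rplp1, Rps15, Rpl4 and Rps14.

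This order of layers moved with Malat1. Only 33.0% and 21.4% of inner arachnoid barcodes were Malat1-rich, against 95.5% and 84.9% of dural border and 91.1% and 87.8% of pial barcodes. In Malat1-rich barcodes alone the dural border-like class had a share of 4.96% and 4.21%, the pial class 3.39% and 2.99% and the inner arachnoid class 2.71% and 2.70%, so that inner arachnoid barcodes were then the lowest. Of the Malat1-poor inner arachnoid barcodes 146 in R1 and 322 in R2 were in cluster F02, and 6 and 13 in F05. The leading genes of F02 included Igha and Igkc, and the part of such markers in the order of layers was not tested. With at most 5% mitochondrial UMIs 31 members differed among the layers, and with at least 800 genes per barcode 29, both without the share of all genes beside them.

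Within a class, the members differed together between Malat1 states. In border macrophage-like barcodes the share was 16.4% in the Malat1-poor and 10.9% in the Malat1-rich barcodes of R1, and 14.5% and 9.30% in R2. In microglia-like barcodes it was 14.9% and 8.92% in R1, and 16.03% and 8.02% in R2. Dural border-like barcodes had 9.88% and 4.96% in R1 and 10.1% and 4.21% in R2. Inner arachnoid barcodes had 6.09% and 2.71% in R1 and 5.93% and 2.70% in R2. Endothelial-like barcodes had 11.2% and 8.33% in R1 and 11.8% and 7.87% in R2. In each of these 5 classes both Malat1-poor values lay above both Malat1-rich values. T or NK-like barcodes did not show this, with 27.5% and 27.8% in R1 and 22.1% and 25.01% in R2, but their Malat1-poor values rest on 7 and 6 barcodes. Neither did neutrophil-like barcodes, with 4.50% in Malat1-poor and 2.955% in Malat1-rich barcodes of R1 and 3.05% and 5.38% in R2, from 3 to 7 barcodes each.

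**Figure D2:**
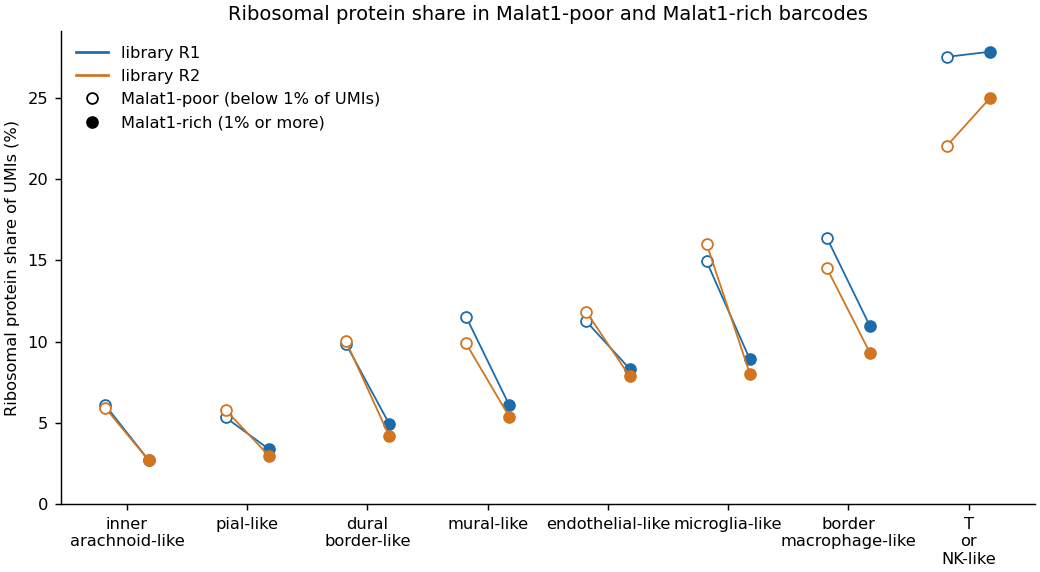
Share of UMIs (%) from the 83 genes in Malat1-poor (open) and Malat1-rich (filled) barcodes of 8 classes, a line joining the 2 states of 1 library. The line falls in every class drawn but T or NK-like, whose Malat1-poor points rest on 7 and 6 barcodes. The pial Malat1-poor points rest on 17 and 16 barcodes, the mural ones on 9 and 20.

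Within Malat1-rich barcodes, too, the share was smaller where Malat1 was higher. In dural border-like barcodes of R1 it was 6.51% at 2 to 5% Malat1, 4.86% at 5 to 10% and 3.26% above 10%, and in R2 it was 5.75%, 4.35% and 3.11%. In endothelial-like barcodes of R1 it was 10.9% at 1 to 2%, 7.90% at 2 to 5% and 5.75% at 5 to 10%. Malat1 UMIs are part of the total, so a larger Malat1 share lowers all others. With Malat1 and mitochondrially encoded genes taken out of the total, the mean share was still 10.7% in Malat1-poor and 5.26% in Malat1-rich dural border-like barcodes, and 16.4% and 10.7% in border macrophage-like ones.

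The difference was tested over 20 sums, 5 classes by 2 states by 2 libraries. In edgeR's quasi-likelihood test 80 of the 83 members were lower in Malat1-rich barcodes and none was higher, beside 12.5% of all genes that were lower. DESeq2 called the same numbers, and 81 members had an unadjusted p below 0.05. The median log2 difference of the members was -0.83, from -0.95 to -0.31. The median of all genes tested was 0.26 and moved to -0.06 with upper-quartile factors, so members are best read against it, and the members' median lay 1.09 below that of all genes.

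The 5 largest differences were spread over both subunits. Rpl34 had 2502 and 1598 CPM in Malat1-poor and Malat1-rich border macrophage-like barcodes of R1, and 2229 and 1360 in R2 (-0.95 ± 0.10 over the 5 classes). Rps4x had 1260 and 398 CPM in inner arachnoid barcodes of R1 and 1227 and 528 in R2 (-0.95 ± 0.10). Rplp1, a stalk protein, had 3442 and 1353 CPM in dural border-like barcodes of R1 and 2368 and 957 in R2 (-0.95 ± 0.10). Poor and rich values did not overlap in any of these. Rpl7 (-0.95 ± 0.10) and Rps14 (-0.95 ± 0.10) followed, and the adjusted p of these 5 lay between 3.52e-19 and 1.73e-18.

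By subunit the values were as follows, and differences between these sets were not tested. Large subunit members had a median of -0.83 with 48 of 49 called, and small subunit members -0.85 with 32 of 34. The stalk genes were at -0.91 (Rplp0), -0.95 (Rplp1) and -0.91 (Rplp2), beyond both medians. The 14 members with the pyrimidine stretch at a start had a median of -0.85, and the 33 with a RefSeq entry and no stretch near a start -0.83. The members that did not pass were Rps27rt, a retrogene copy of Rps27 (-0.72 ± 0.31, adjusted p = 0.057), Rps19bp1 (-0.36 ± 0.28, adjusted p = 0.33) and Rpl7l1 (-0.31 ± 0.25, adjusted p = 0.37), which are the 3 with the fewest UMIs.

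By class, 81 members were lower in Malat1-rich border macrophage-like barcodes (14.2% of all genes; median -0.75), 81 in inner arachnoid (12.8%; median -1.42), 74 in microglia-like (4.78%; median -1.06) and 61 in dural border-like barcodes (4.25%; median -0.82). In endothelial-like barcodes edgeR called none (0.0576% of all genes were lower), with 3 members at an unadjusted p below 0.05. DESeq2 called 3, upper-quartile factors gave 12 and a Malat1 limit of 2% gave 30. For these alternatives the share of all genes is not given here. The members' median in endothelial-like barcodes was -0.18 in the main fit, and that of all genes 0.51, so the members again lay 0.70 below all genes. In border macrophage-like, inner arachnoid and microglia-like barcodes the 2 states were largely different clusters. Malat1-rich macrophages were mostly in C02 and poor ones in C06, and rich microglia in C11 and poor ones in C09. Rich inner arachnoid barcodes were mostly in F05 and poor ones in F02. F02 was led by Igha, Igkc and Cd79a, and its 10 leading genes held 2 markers of its own layer and 2 of other classes. It scored 0.95 as inner arachnoid and 0.77 as plasma-like. The part of these other markers in the members' difference was not tested.

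**Figure D3:**
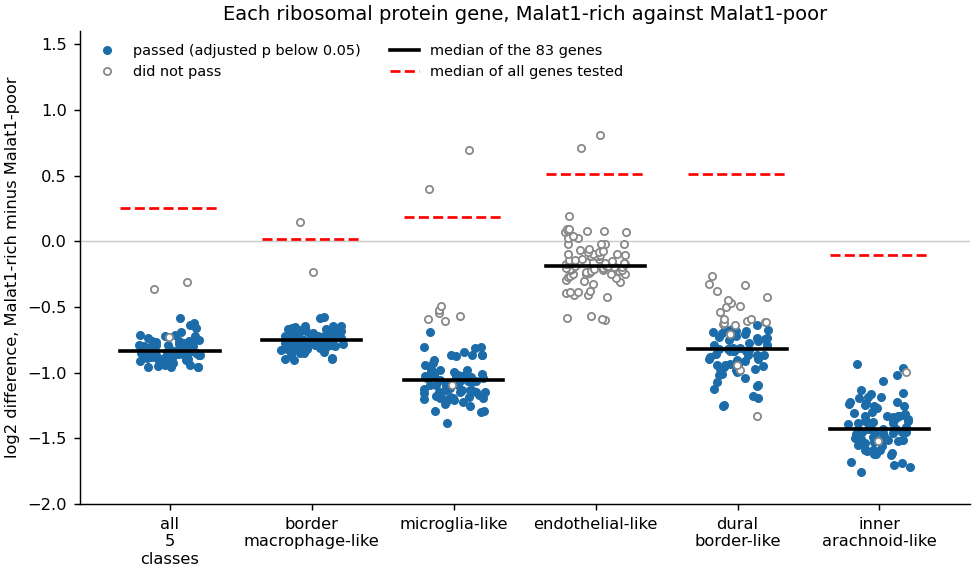
log2 difference (Malat1-rich minus Malat1-poor) of each of the 83 genes, over the 5 classes and in each, filled where the adjusted p was below 0.05, with the median of the 83 (black line) and of all genes tested (red dashes). The median of the members lies below that of all genes in each class, at values from -1.42 in inner arachnoid to -0.18 in endothelial-like barcodes.

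Several other measures moved with the Malat1 state. Malat1-rich border macrophage-like barcodes had a median of 5453 and 5023 UMIs and 2.77% and 2.26% mitochondrial UMIs, and Malat1-poor ones 1179 and 997 UMIs and 5.98% and 5.82%. The 7 markers of inner arachnoid cells, all detected, summed to 5617 and 6760 CPM in Malat1-rich and 19223 and 33006 CPM in Malat1-poor border macrophage-like barcodes. The 7 macrophage markers, all detected in both states, summed to 12408 and 14656 CPM and to 9794 and 10307 CPM. In microglia-like barcodes the erythroid list summed to 844 and 966 CPM in Malat1-rich barcodes, with Alas2 at 0, and to 110770 and 3685 CPM in Malat1-poor ones, with Alas2 at 0 in R2. Their part in the members' difference was not tested. When every barcode was thinned to 500 UMIs, 79 of 80 members tested were lower, with a median of -0.93 beside -0.14 for all genes. By class, thinning left 80 called in border macrophage-like, 77 in inner arachnoid and 72 in microglia-like barcodes, but 1 in dural border-like ones, where 61 were called without it. Shares of all genes called after thinning are not given here, so a change in these counts need not be particular to the members.

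Genes that act with the ribosome were read from lists beside the members. Among ribosomal proteins outside the symbol rule, Fau, whose product carries a small subunit protein fused to a ubiquitin-like protein (-0.83 ± 0.10), and the scaffold Rack1 (-0.89 ± 0.12) were lower in Malat1-rich barcodes. Of 10 elongation and associated genes 9 were lower (median -0.79), led by Tpt1 (-0.94 ± 0.10), Eef1b2 (-0.92 ± 0.11) and Eef1a1 (-0.90 ± 0.10), and the translocase Eef2 was -0.76 ± 0.11. Of 29 initiation factors 17 were lower and 1 higher, Eif4a2 (0.41 ± 0.12). Eif4a1, the related helicase, was -0.01 ± 0.11 and did not pass.

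Of all genes tested 22.5% were higher in Malat1-rich barcodes, against which the counts of higher genes in these lists are to be read. Ribosome biogenesis genes split. Of 26 tested 6 were lower, among them the nucleolar proteins Npm1 (-0.74 ± 0.12) and Ncl (-0.52 ± 0.12), and 3 were higher, Gnl3 (1.27 ± 0.34), the snoRNP protein Nop56 (1.26 ± 0.24) and Wdr43 (1.07 ± 0.33). Of 12 genes of growth control 7 were higher and 1 lower (Akt1, -0.49 ± 0.19). Those higher included Rps6kb1, which encodes the kinase that phosphorylates Rps6 (1.58 ± 0.26), Rptor of mTOR complex 1 (1.13 ± 0.36) and Larp1, which binds TOP mRNAs (0.69 ± 0.21). Of 6 nuclear-retained RNAs, among them Malat1, which defines the split, 5 were higher, with Neat1 at 3.09 ± 0.17, and Meg3 was lower.

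Border macrophages and microglia differed by less. Of the 83 members 17 were higher in border macrophage-like than in microglia-like barcodes and none was lower (10.8% of all genes were higher), with a median of 0.38 beside 0.15 for all genes. Rps29 led (1.05 ± 0.21, adjusted p = 3.27e-05), with the values given above. Rps27l, a paralog of Rps27 known as a p53 target, had 254 and 276 CPM in border macrophage-like and 144 and 145 in microglia-like barcodes (1.02 ± 0.22). Rpl38 had 2404 and 1965 against 1270 and 1263 CPM (0.95 ± 0.21). Rpl23 (0.74 ± 0.21) and Rps28 (0.73 ± 0.21) followed, and the values of both libraries were apart in each. Within Malat1-poor barcodes 2 members were higher, and the members' median of 0.13 lay below the 0.32 of all genes. Thinning to 500 UMIs left 4, with a median of 0.31 beside 0.37, and with at least 800 genes per barcode 33 were higher. The shares of all genes called under these settings are not given here.

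When each class is scaled to its own total of ribosomal protein UMIs, what is left is the composition of the family. The 5 members with most UMIs (Rps29, Rpl41, Rps24, Rpl37 and Rpl13) made up 15.5% of them and the leading 20 made up 44.1%. Over the 8 classes a member's share of this total differed by a median ratio of 1.77 between its highest and lowest class, from 1.17 to 9.39. On this scale 64 members differed among classes, and 99.4% of all genes did, since every gene outside the family is then read against a total that itself varies between classes. Among the fibroblast-like layers none did (edgeR; 3 had an unadjusted p below 0.05, and 42.1% of all genes passed). Between Malat1 states 4 did (63.8% of all genes), all with a larger share in Malat1-rich barcodes: Rpl7l1 (0.54 ± 0.23), Rpl10a (0.26 ± 0.09), Rpl29 (0.22 ± 0.10) and Rpl22l1 (0.20 ± 0.09).

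**Figure D4:**
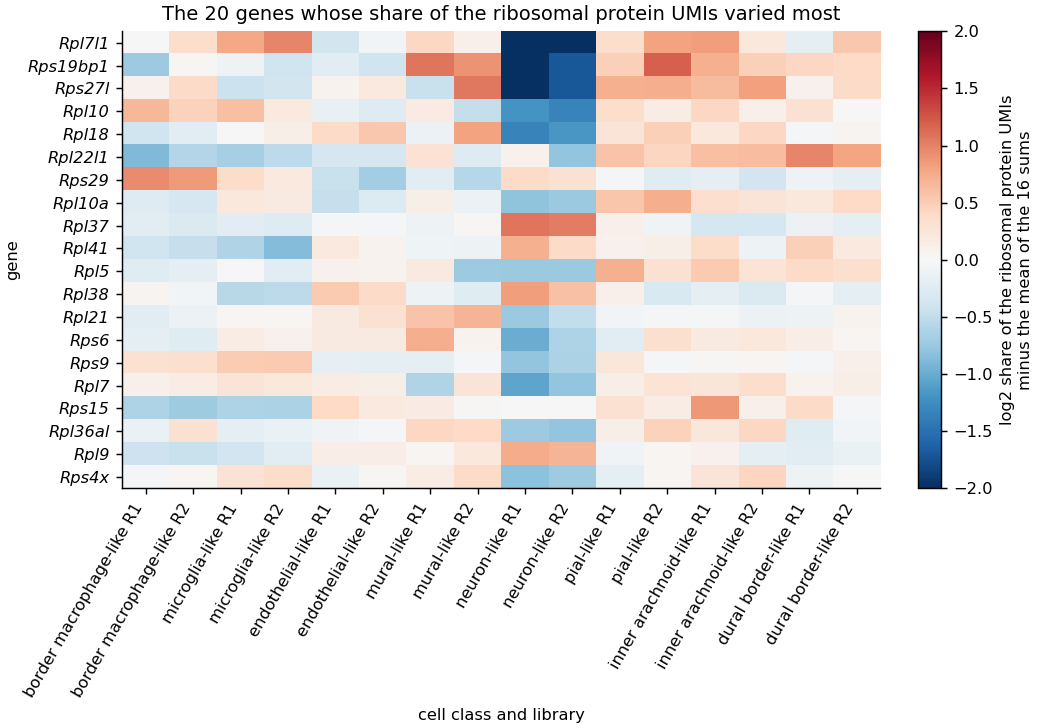
log2 share of the ribosomal protein UMIs, centred on the mean of the 16 sums, for the 20 genes with the widest ratio between classes among those called with the members' own total and with UMIs in each sum (rows), in 8 classes and 2 libraries (columns). The neuron-like columns stand out with low Rpl7l1, Rps19bp1, Rps27l, Rpl10 and Rpl18 and high Rpl37.

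Neuron-like barcodes had the most unlike composition. Rpl37 made up 4.61% of their ribosomal protein UMIs and 1.75% in inner arachnoid barcodes, the lowest class. Rpl41, which encodes the shortest ribosomal protein, made up 4.54% against 1.86% in microglia-like barcodes, and Rpl38 2.91% against 1.22%. Rpl10, a late-joining large subunit protein, made up 0.30% in neuron-like and 1.06% in border macrophage-like barcodes, and Rpl18 0.41% against 1.35% in endothelial-like ones. Rps29 made up 7.55% in border macrophage-like and 2.73% in endothelial-like barcodes. In neuron-like barcodes the 20 members with the shortest coding sequences (up to 357 bases) had a median log2 share 0.16 and 0.20 above the mean of the other classes, and the 20 longest (624 bases or more) 0.62 and 0.71 below it. In border macrophage-like barcodes the same sets lay 0.10 and 0.11 above and 0.21 and 0.25 below. Across the 82 members with UMIs in every sum Spearman's rho with coding length was -0.37 and -0.36 in neuron-like barcodes. In border macrophage-like barcodes it was -0.28 and -0.37, so the relation was not particular to the neuron-like class. It was positive in both libraries of every other class in the fit. Each class was set against the mean of the others, so negative values in some push the rest towards positive ones. The positive signs are thus not a separate result. All these values of rho are weak relations over genes that share libraries.

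Against the other classes without neuron-like barcodes, 31 members had another share in the fibroblast-like layers (78.9% of all genes), 19 larger and 12 smaller. The smaller ones were led by Rpl35a (-0.52 ± 0.09) and Rpl34 (-0.44 ± 0.10). The larger ones were led by Rpl22l1 (1.07 ± 0.12), Rpl23a (0.62 ± 0.14), Rps19bp1 (0.54 ± 0.23), Rps15 (0.53 ± 0.12), Rpl10a (0.52 ± 0.10) and Rpl5 (0.52 ± 0.13). Rpsa (0.30 ± 0.10), Rplp0 (0.28 ± 0.10) and Rplp1 (0.27 ± 0.09) were also larger, and Rplp2 did not pass. Between border macrophage-like and microglia-like barcodes 4 members passed (16.2% of all genes), Rps29 and Rpl38 with a larger and Rpl4 and Rpl10a with a smaller share in macrophages.

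Some ribosomal proteins have a paralog that can take their place, and Rpl22l1 is one for Rpl22, an RNA-binding large subunit protein. In dural border-like barcodes Rpl22l1 had 453 and 381 CPM and Rpl22 334 and 377. In border macrophage-like barcodes Rpl22l1 had 323 and 348 CPM and Rpl22 1101 and 1036. Rpl22l1 thus made up 57.6% and 50.3% of the UMIs of the pair in dural border-like, 49.4% and 48.7% in inner arachnoid, 47.6% and 46.3% in pial, 28.5% and 28.9% in endothelial-like and 22.7% and 25.2% in border macrophage-like barcodes. All fibroblast-like values lay above all endothelial-like, mural-like, microglia-like and macrophage-like ones. Neuron-like barcodes were split between libraries, with 52.7% in R1 and 35.5% in R2. Unnamed cluster F04 had 51.2% and 52.4%. Values of a pair are UMIs not scaled by length, and how reads that fit more than 1 gene were treated is not given in the sources used here.

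**Figure D5:**
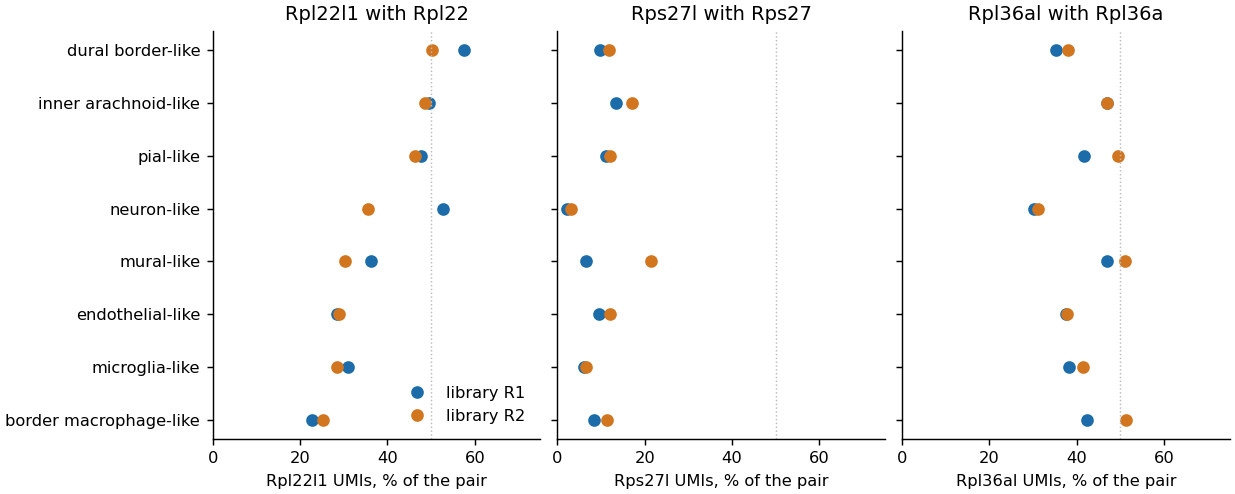
Share (%) of the UMIs of a paralog pair that came from Rpl22l1, Rps27l or Rpl36al in 8 classes, 1 point per library, with a dotted line at 50%. Rpl22l1 lies at 46.3% to 57.6% in the 3 fibroblast-like layers and at 22.7% to 36.3% in the macrophage, microglia, endothelial and mural classes.

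The pairs of Rps27l and Rpl7l1 were less even, and that of Rpl36al was less even in some classes and more even in others. Rps27l made up 13.5% and 17.1% of its pair with Rps27 in inner arachnoid barcodes, 8.29% and 11.3% in border macrophage-like, 6.08% and 6.61% in microglia-like and 2.14% and 3.17% in neuron-like barcodes. In T or NK-like barcodes it made up 2.16% and 2.81%, beside the high Rps27 given above. Rpl36al made up 42.3% and 51.4% of its pair with Rpl36a in border macrophage-like and 30.2% and 31.1% in neuron-like barcodes. Rpl7l1, which resembles Rpl7, made up 10.2% and 12.01% of its pair in microglia-like and 2.52% and 3.14% in neuron-like barcodes. Rps27rt and Rps27 are near-identical copies, and their counts are uncertain for that reason.

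Rpl7l1 and Rpl36al were also the members whose Malat1 difference differed between fibroblast-like and myeloid classes in edgeR's test, 2 of 83 (5.1% of all genes). In microglia-like barcodes Rpl7l1 had 52 and 108 CPM in Malat1-poor and 135 and 134 in Malat1-rich barcodes, and in inner arachnoid barcodes 61 and 47 against 35 and 12 CPM. Neither passed in DESeq2. The members' median interaction was -0.21 beside 0.05 for all genes, and was 0.063 in R1 alone.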

How the data were processed

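UMI counts per gene and barcode were deposited by the authors and made with Cell Ranger 4.0.0 against mm10, per the file headers and the submitters' processing notes. The deposited feature and barcode lists (unit: other) give symbols and barcodes. The members and gene lists were chosen with earlier results of these data known. A barcode was kept if it had 400 or more genes and no more than 10% of UMIs from mitochondrially encoded genes. In R1 1314 and in R2 1369 barcodes were under the gene limit and 3631 and 2905 over the mitochondrial one. Scrublet called 3 of 2988 and 3 of 3038 barcodes, too few to have worked, so doublets may remain. Counts were clustered with scanpy 1.11.5 (2000 variable genes without members, listed, mitochondrial and sex-linked genes, 30 components, 15 neighbours, Leiden resolution 1.0, and 0.8 among fibroblast-like barcodes) and named by marker scores (at least 4 in the first round, 0.9 among layers).

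For each library, the counts of a class were added up (at least 50 barcodes in each library), also by Malat1 state (at least 20). edgeR 4.0.16 (quasi-likelihood, TMM, filterByExpr, library as a block, R 4.3.3) was run over all genes with Benjamini-Hochberg adjustment and a threshold of 0.05. The fits held 10875 and 8678 genes with 7 and 5 residual degrees of freedom. On simulated counts with known changes both fits were checked. DESeq2 1.42.0 and the other settings were alternatives. Fits on the members' own total, without neuron-like barcodes and without shared barcodes were added after seeing the data. For comparisons with a direction the text names the 5 members with the largest change each way among those called in the same direction in both libraries with at least 50 CPM, for F tests the 8 with the widest range, and always the stalk genes, Rpsa, Rps19bp1, paralogs and the genes next to the UMI minimum. Members named from the composition were chosen after their values were seen. Gene identifiers are those of the files, and coding lengths come from GENCODE M21. A gene of the lists is not reported here.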

Additional observations from a re-analysis of the deposited data

Results flagged for a closer look

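Between fibroblast-like and myeloid classes the Malat1 difference was unlike for Rpl7l1, by -1.64 ± 0.46 on the log2 scale (edgeR interaction contrast, adjusted p = 0.011), and for Rpl36al, by -0.78 ± 0.25 (adjusted p = 0.046). Rpl7l1 rests on few UMIs, 7 and 5 in Malat1-poor dural border-like barcodes of R1 and R2. In DESeq2 the adjusted p was 0.13 for Rpl7l1 and 0.20 for Rpl36al. Over the alternatives that gave a test, both kept the negative sign.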

How the results depend on the processing

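The counts of members lower in Malat1-rich barcodes stayed between 79 and 82, lower in fibroblast-like classes between 79 and 83, and differing among classes between 82 and 83 over all alternatives. For most alternatives the share of all genes called is not given here. Shifts in the counts of this section are therefore not read as results about the members. The Malat1 median was -1.20 with upper-quartile factors and -0.66 with a Malat1 limit of 0.5%, and -0.70 and -0.94 in single libraries. At 800 genes it rests on border macrophage-like barcodes alone. The fibroblast median was -1.71 with at most 5% and -1.23 with at most 20% mitochondrial UMIs, -1.24 thinned to 500 UMIs, -1.57 without shared barcodes and -1.09 without neuron-like barcodes (single libraries -1.53 to -1.32). The cause of these shifts was not tested.

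Members higher in border macrophage-like than microglia-like barcodes numbered 26 with at most 5% mitochondrial UMIs, 33 with at least 800 genes, 4 thinned to 500 UMIs and 2 in Malat1-poor barcodes. Their median was 0.26 with DESeq2, 0.35 with totals from other genes, 0.31 with upper-quartile factors, 0.30 with at most 20% mitochondrial UMIs, 0.49 with 800 genes, 0.31 thinned, 0.13 in Malat1-poor barcodes, 0.35 without shared barcodes and 0.35 to 0.39 in single libraries. Among layers 31 members passed with at most 5% mitochondrial UMIs and 29 with 800 genes.

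The interaction called 0 members with DESeq2, at most 5% mitochondrial UMIs and thinning, 1 with totals from other genes, no filter, without shared barcodes and at either other Malat1 limit, and 9 with upper-quartile factors. Its median turned to 0.36 thinned and 0.024 at a limit of 2%, and was 0.063 to -0.41 in single libraries. Rps19bp1 was 0.13 in fibroblast-like against other classes in Malat1-poor barcodes. Without the replicate block (the library as a block in the main fits) 81 members were lower in Malat1-rich barcodes and 83 in fibroblast-like classes, and 56 differed among layers. For named members 661 of 704 values over alternatives kept sign and call, 42 lost the call and 1 changed sign. Low depth limits Rps19bp1, Rpl7l1 and Rps27rt most.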

Other observations

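The libraries differed little in most members. Over the 8 classes of the fit, a member's median log2 difference of R2 minus R1 CPM had a median of -0.05. Rps27rt was higher in R2 in 7 of 8 classes, and 7 members were higher in R1 in all 8, among them Rpl41, Rpl10 and Rps15. No test between libraries is possible, since each is 1 sample.

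The unnamed cluster C19, led by the MHC class II genes H2-Eb1, H2-Ab1, H2-Aa and Cd74, was the highest of all for 22 members, and the T or NK-like class for 40. Its Rps24 level was 6965 and 8083 CPM and its Rpl22l1 level 369 and 493, beside 975 and 817 in T or NK-like barcodes. In C19 too the share of ribosomal protein UMIs was higher in Malat1-poor (26.7% and 31.4%) than in Malat1-rich barcodes (21.4% and 22.7%).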
